A study of Mus musculus with 59 samples.

Results

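The DNA replication genes are a set of 48 genes of the machinery that copies the genome, taken by symbol from the gene table (55421 rows) and the intron table (33282 rows) of a study of mouse mammary tumors. All 48 were found in both tables. They were grouped by role into 8 groups: origin licensing (11 genes), helicase activation and the fork (8), polymerases and primase (7), the sliding clamp and its loader (6), single-strand binding and fragment maturation (4), nucleotide supply (5), E2F transcription factors (3), and chromatin assembly with maintenance methylation (4). The tumors were primary mammary tumors of mice hemizygous for the MMTV-PyMT transgene, PyMT (+/-), on the B6.FVB-Tg(MMTV-PyVT)634Mul/LellJ background, in which the promoter of the mouse mammary tumor virus drives the polyoma middle T oncogene in mammary epithelium. Groups were methylparaben (n = 20), propylparaben (n = 20) and vehicle (n = 19). All 59 tumors carried the transgene, so none of the groups is a normal mammary gland. Parabens are preservatives, esters of para-hydroxybenzoic acid with a methyl group in methylparaben and a propyl group in propylparaben. Doses, exposure times and ages are not in the labels, and the labels do not state that each library is from a separate animal, so each p-value reflects only library-to-library spread, which may be partly technical.

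Replication starts at origins bound by the origin recognition complex, where Cdc6 and Cdt1 load the Mcm2-7 helicase in G1. In S phase Cdc45, the GINS complex and Mcm10 turn the loaded helicase into a moving fork, primase and the DNA polymerases copy both strands, and the clamp PCNA holds the polymerases on DNA. Most of these genes are transcribed periodically under E2F factors, and in tumors their RNA is widely read as a sign of how many cells are cycling.

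Short stretches of promoter with an E2F-like word are shown for the 6 members with the smallest p values for methylparaben against vehicle among those that hold such a word, because E2F control is what these genes are known to share. The words searched were TTTCCCGC, TTTGGCGC, TTTCGCGC and TTTGCCGC, on both strands, in RefSeq promoters of GRCm38.p6 that run from 250 bases before to 50 bases after the start site. The sequences run 5′ to 3′ on the strand of the gene, and capitals mark the word.
Cdt1: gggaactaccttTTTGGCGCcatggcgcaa
Rfc3: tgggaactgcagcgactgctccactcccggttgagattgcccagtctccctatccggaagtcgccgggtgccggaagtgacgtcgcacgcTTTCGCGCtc
Orc1: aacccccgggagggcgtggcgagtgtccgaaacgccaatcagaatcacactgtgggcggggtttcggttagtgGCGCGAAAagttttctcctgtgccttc
Mcm7: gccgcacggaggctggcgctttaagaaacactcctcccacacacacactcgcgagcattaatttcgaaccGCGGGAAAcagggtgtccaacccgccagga
E2f2: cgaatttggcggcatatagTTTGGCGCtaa
Gins3: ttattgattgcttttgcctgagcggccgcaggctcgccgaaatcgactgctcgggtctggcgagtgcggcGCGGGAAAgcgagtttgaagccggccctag

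These windows lie at chr8:122568035-122568064 (Cdt1, plus strand), chr5:151651209-151651308 (Rfc3, minus), chr4:108579354-108579453 (Orc1, plus), chr5:138172019-138172118 (Mcm7, minus), chr4:136172294-136172323 (E2f2, plus) and chr8:95633448-95633547 (Gins3, plus). In Orc1, Gins3 and Rfc3 the word began 27, 41 and 10 bases before the start site, and in Mcm7 165 bases before it. In Cdt1 and E2f2 it lay just after the start site, and only 30 bases are printed. Tk1, Prim1, E2f1 and Rfc5, with p values among those of the genes shown, had a promoter without such a word. Pole, also among them, had no promoter listed. Of the 40 members with a promoter in the RefSeq table, 16 (40%) held an E2F-like word, against 704 of all 27025 genes (2.61%). Of the 22 mitosis genes used for comparison, 18 had a promoter and 1 of these held the word. The order was the other way round for the words TTTGAA and TTCGAA, short forms of the cell cycle genes homology region (CHR) of genes active in G2 and mitosis. They were in 9 of 40 members (22.5%) and in 14 of 18 mitosis genes (77.8%), against 21.7% of all genes. CCAAT was in 24 of 40 members (60%), in 16 of 18 mitosis genes (88.9%) and in 41.1% of all genes. The median GC content was 59.2% for member promoters, 58.3% for those of mitosis genes and 52.7% for all promoters, and a match is a description of letters, not a measured binding site.

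Each library held 1166500 to 2032790 reads on genes and 307255 to 1059350 reads in introns. Values are read counts scaled to library size and divided by a scaling factor of each library (0.782 to 1.09), called scaled reads below. The tissue label was checked against luminal epithelial genes: Epcam lay between 235 and 582 scaled reads, Krt8 between 37.1 and 137 and Krt18 between 67.3 and 232 over the 59 tumors. Of the members, 47 had reads in every library, and Pole had none in 1 propylparaben tumor. Since whole tumor pieces were sequenced, fewer cycling cells and less RNA per cell cannot be told apart. At 1 end of the first principal component (18.95% of variance, computed without the members and the mitosis genes) stood 7 libraries: propylparaben 1 and vehicle 7, 8, 10, 13, 14 and 19. The cut was made by number and not at a gap. The last of them, vehicle 13, scored -36.2, and the next library, vehicle 1, scored -31.6. These 7 libraries had high mitosis levels, and most were vehicle tumors. In the mean over the members they held ranks 1, 2, 3, 4, 5, 8 and 10 of 59, highest first. Key results are given with and without them, and leaving them out takes away vehicle tumors with high member levels.

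The first comparison asks how replication genes differed in methylparaben tumors. Of the 48 members, 47 lay below vehicle, with a median difference of -0.33 in log2(scaled reads + 1), while over all 14487 genes tested 48.8% lay below 0 and the median was 0.01. Only Cdt1, the licensing factor that brings the helicase to origins, passed the test (limma with trend, adjusted p under 0.05 over all genes), and no member was called higher. Of all genes 0.635% were called lower and 0.683% higher, so a single call among 48 does not set the members apart, and what the members showed was small differences of 1 sign in many genes. For 41 members at least 15 of 20 methylparaben tumors were below the vehicle median, and for 24 members at least 15 of 20 propylparaben tumors were. The highest of all 59 tumors was a methylparaben tumor for 5 members, a propylparaben tumor for 9 and a vehicle tumor for 34. Such counts of tumors were not made for all genes, so nothing particular to the members is read from them. At an unadjusted p under 0.05, 33 members were lower and 0 higher, against 1494 lower and 1712 higher among all genes. Across tumors the members moved together (median r of 0.48 over pairs, group means taken off). Counts of members by sign or by unadjusted p, here and below, are therefore not counts of independent genes.

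For propylparaben most members also lay below vehicle, and none was called. Of 48 members 47 lay below vehicle, with a median of -0.27 (all genes -5e-04, 50.2% below 0). The limma test called 0 members and 0 of 14487 genes lower (0%; 0.0276% higher), and 19 members and 1375 of all genes were lower at an unadjusted p under 0.05. The smallest adjusted p was 0.0811, for Rfc3. edgeR called 0 members and DESeq2 called 1, Rfc3 (adjusted p = 0.04998), against 0.069% and 0.973% of all genes called lower. Both comparisons share the vehicle tumors, so they are not independent of each other.

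**Figure D1:**
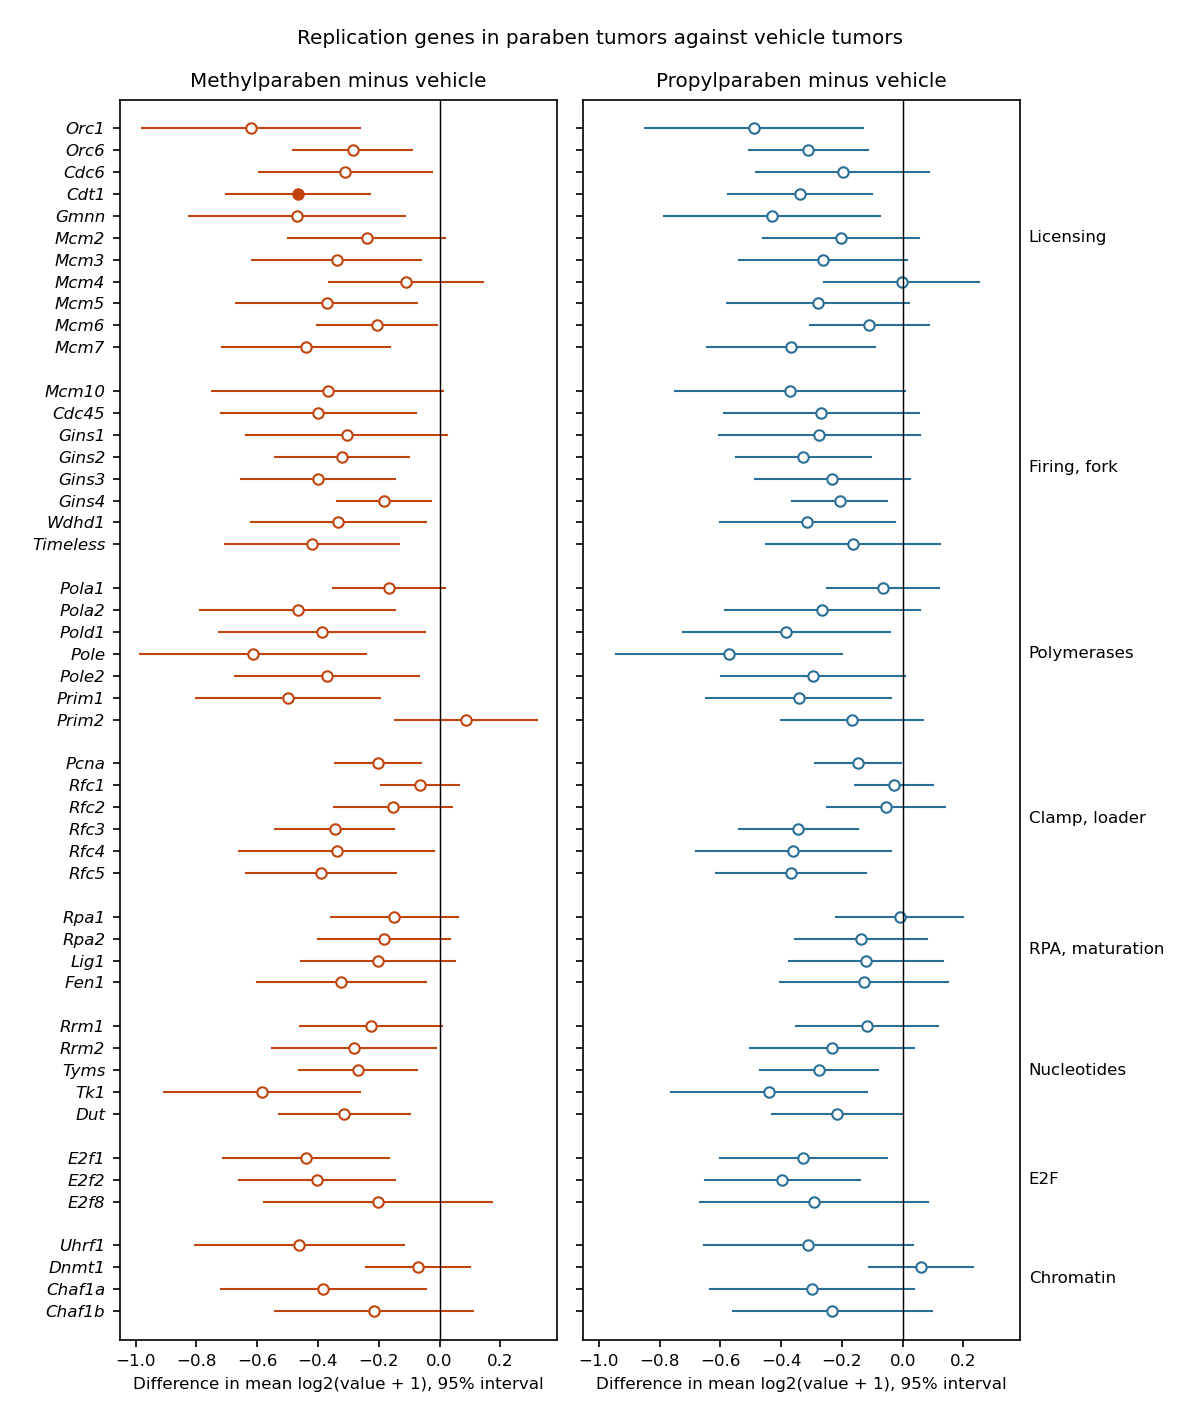
Difference in mean log2(scaled reads + 1) of each replication gene for methylparaben minus vehicle (left) and propylparaben minus vehicle (right), by role, with 95% intervals from the limma fit; filled points passed an adjusted p under 0.05. Only Cdt1 in the left panel is filled, and 47 of 48 points lie left of 0 in each panel, the exceptions being Prim2 (left) and Dnmt1 (right).

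Among the licensing genes all 11 lay below vehicle in both comparisons, with medians of -0.34 for methylparaben and -0.28 for propylparaben. Cdt1 (ENSMUSG00000006585, GRCm38 chromosome 8, 122568015 to 122573554, plus strand) had a lowest, median and highest value of 15.7, 21.9 and 30.9 scaled reads in methylparaben tumors, of 15.8, 22.8 and 40.2 in propylparaben tumors, and of 16.4, 30.9 and 48.1 in vehicle tumors. The groups overlapped in their lower range, and 19 of 20 methylparaben tumors were below the vehicle median. Cdt1 fell by 0.47 ± 0.12 on the log2 scale in methylparaben tumors (SE; adjusted p = 0.0400, limma), and differed by -0.34 ± 0.12 in propylparaben tumors (adjusted p = 0.130), with 17 of 20 below the vehicle median. Its call was not stable: it held in 39 of 59 fits that each left out 1 library, with adjusted p between 0.0157 and 0.0855. It was lost without methylparaben 2, 3, 5, 6, 7, 8, 11, 13, 15 or 18, or without vehicle 1, 2, 7, 8, 10, 13, 14, 16, 18 or 19. Without the 7 libraries named above, mostly vehicle tumors with high member levels, the difference was -0.25 (adjusted p = 0.843).

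Orc1, the largest subunit of the origin recognition complex, had the largest difference of the members for methylparaben. Its lowest, median and highest values were 1.49, 3.56 and 8.93 scaled reads in methylparaben tumors, 0.758, 4.37 and 10.3 in propylparaben tumors, and 2.997, 5.61 and 20.5 in vehicle tumors. The ranges overlapped, and the highest tumor, vehicle 8, stood apart from the rest. The difference was -0.62 ± 0.18 for methylparaben (adjusted p = 0.0570) and -0.49 ± 0.18 for propylparaben (adjusted p = 0.146). A gene on the other strand, Gm12743, overlaps an exon of Orc1, and the strand setting of the counting is not known here, so reads of the pair cannot be told apart.

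Geminin (Gmnn), the inhibitor of Cdt1, ranged from 3.81 to 15.5 with a median of 6.95 scaled reads in methylparaben tumors, from 2.89 to 20.99 (median 9.07) in propylparaben tumors, and from 5.64 to 23.0 (median 13.01) in vehicle tumors. It differed by -0.47 ± 0.18 for methylparaben (adjusted p = 0.118) and by -0.43 ± 0.18 for propylparaben (adjusted p = 0.192). The loader and its inhibitor thus both lay lower by similar amounts, and neither difference for Gmnn passed. The Mcm2-7 helicase subunits were not alike in size: Mcm7 differed by -0.44 ± 0.14 for methylparaben (adjusted p = 0.0719), Mcm2 by -0.24 ± 0.13 (0.276) and Mcm4 by -0.11 ± 0.13 (0.653). Mcm2 had medians of 16.8 scaled reads in methylparaben tumors, 17.9 in propylparaben tumors and 20.8 in vehicle tumors. Mcm4 had medians of 46.3, 52.6 and 57.4 in methylparaben, propylparaben and vehicle tumors, and for propylparaben its difference was -0.004 ± 0.13 (adjusted p = 0.990). The difference between subunits was not tested. Mcm7 had medians of 49.97 scaled reads in methylparaben tumors, 47.9 in propylparaben tumors and 64.05 in vehicle tumors, and differed by -0.37 ± 0.14 for propylparaben (adjusted p = 0.155). Orc6, the smallest subunit of the origin recognition complex, had values from 9.94 to 23.2 (median 16.1) in methylparaben tumors, from 10.9 to 29.2 (median 15.1) in propylparaben tumors and from 12.1 to 30.4 (median 18.99) in vehicle tumors. It differed by -0.29 ± 0.10 for methylparaben (adjusted p = 0.0900) and by -0.31 ± 0.10 for propylparaben (0.101), and 18 and 19 of 20 tumors were below the vehicle median. It passed for propylparaben in 1 of 59 fits that each left out a library, the one without propylparaben 1 (adjusted p = 0.0373). Exons of Mcm7 overlap Cops6 and Ap4m1 on the other strand, and Mir25 and Mir93 lie within it.

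**Figure D2:**
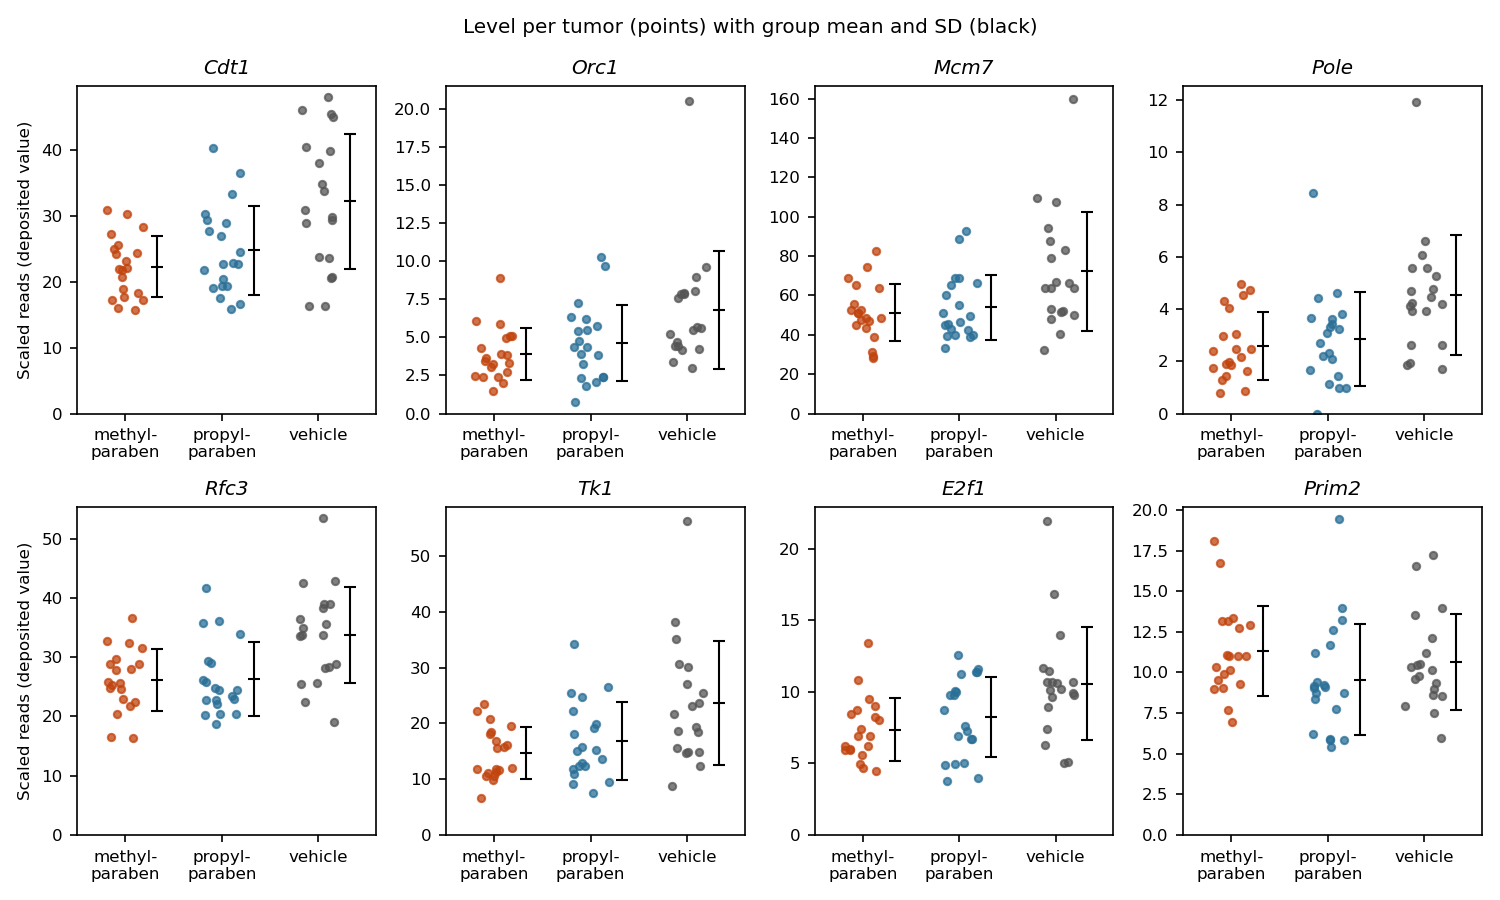
Scaled reads of 8 replication genes in each tumor (points), with methylparaben, propylparaben and vehicle from left to right and the group mean and SD in black; each axis starts at 0. The groups overlap in every panel, the vehicle tumors reach the highest values in all but Prim2, and single high vehicle tumors stand out for Orc1, Mcm7, Pole and Tk1.

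All 8 genes of helicase activation and the fork lay below vehicle in both comparisons (medians -0.35 for methylparaben and -0.27 for propylparaben), with none called. Timeless, which protects stalled forks, differed by -0.42 ± 0.15 for methylparaben (adjusted p = 0.0884) and by -0.16 ± 0.15 for propylparaben (0.566). Its medians were 8.22 scaled reads in methylparaben tumors, 9.35 in propylparaben tumors and 10.9 in vehicle tumors. Gins3, a subunit of the GINS complex, had values from 2.48 to 9.43 (median 5.95) in methylparaben tumors, from 4.17 to 9.69 (median 6.35) in propylparaben tumors and from 3.51 to 17.0 (median 7.47) in vehicle tumors. Its difference was -0.40 ± 0.13 for methylparaben (adjusted p = 0.0732) and -0.23 ± 0.13 for propylparaben (0.331). Gins1 of the same complex had the largest p of the group for methylparaben, with -0.31 ± 0.17 (adjusted p = 0.279).

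Of the 7 polymerase and primase genes, 6 lay below vehicle in methylparaben tumors and all 7 in propylparaben tumors, with none called. Pole, the catalytic subunit of the leading-strand polymerase epsilon, had values from 0.787 to 4.96 (median 2.29) in methylparaben tumors, from 0 to 8.43 (median 2.88) in propylparaben tumors and from 1.71 to 11.9 (median 4.24) in vehicle tumors. It differed by -0.61 ± 0.19 for methylparaben (adjusted p = 0.0642) and -0.57 ± 0.19 for propylparaben (0.108), at no more than 31 reads in any library. Pola2, a subunit of polymerase alpha, had values from 2.16 to 9.502 (median 4.68) in methylparaben tumors, from 2.89 to 9.04 (median 6.1996) in propylparaben tumors and from 1.28 to 13.5 (median 7.44) in vehicle tumors. It differed by -0.47 ± 0.16 for methylparaben (adjusted p = 0.0900) and by -0.26 ± 0.16 for propylparaben (0.385), and it passed for methylparaben only in the fit without vehicle 5 (adjusted p = 0.0205), 1 of 59. The subunits of primase lay on opposite sides of vehicle for methylparaben, and the difference between them was not tested. Prim1, the catalytic subunit, had medians of 7.83 scaled reads in methylparaben tumors, 9.64 in propylparaben tumors and 10.6 in vehicle tumors, and differed by -0.50 ± 0.15 for methylparaben (adjusted p = 0.0653). Prim2, its partner subunit, was the 1 member above vehicle in methylparaben tumors, by 0.09 ± 0.12 (adjusted p = 0.714), with medians of 11.01, 9.08 and 10.2 in methylparaben, propylparaben and vehicle tumors. For propylparaben Prim2 differed by -0.17 ± 0.12 (adjusted p = 0.456).

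The clamp PCNA is encoded by Pcna, which had values from 30.2 to 52.6 (median 43.2) scaled reads in methylparaben tumors, from 34.7 to 58.1 (median 43.96) in propylparaben tumors and from 35.7 to 64.0 (median 47.9) in vehicle tumors. Its difference was small and precise: -0.20 ± 0.07 for methylparaben (adjusted p = 0.0935) and -0.15 ± 0.07 for propylparaben (0.262). Pcna-ps1 and Pcna-ps2 are annotated copies, and how reads shared with them were assigned is not known here. Of the 5 subunits of the clamp loader RFC, Rfc3 (-0.35 ± 0.10, adjusted p = 0.0541) and Rfc5 (-0.39 ± 0.13, adjusted p = 0.0724) had the smallest p values for methylparaben. Rfc1, the large subunit, had -0.06 ± 0.07 (adjusted p = 0.598) and a 95% interval of -0.19 to 0.07. Rfc3 had medians of 25.7 scaled reads in methylparaben tumors, 24.5 in propylparaben tumors and 33.8 in vehicle tumors, and 19 of 20 methylparaben and 16 of 20 propylparaben tumors were below the vehicle median. All 20 methylparaben tumors were below the vehicle median for Rfc5, and Gins4 was the other member of which this held.

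The 4 genes of single-strand binding and fragment maturation had the smallest differences, with medians of -0.19 for methylparaben and -0.12 for propylparaben and none called. Fen1, the nuclease that trims Okazaki fragments, differed by -0.32 ± 0.14 for methylparaben (adjusted p = 0.166). Its medians were 21.2 scaled reads in methylparaben tumors, 24.8 in propylparaben tumors and 28.4 in vehicle tumors. Rpa2, a subunit of the single-strand binding protein RPA, had -0.18 ± 0.11 (adjusted p = 0.325). Rpa1, its large subunit, had -0.15 ± 0.11 for methylparaben (adjusted p = 0.412) and -0.01 ± 0.11 for propylparaben (0.970).

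All 5 genes of nucleotide supply lay below vehicle in both comparisons, with none called. Tk1, the thymidine kinase of S phase cells, had values from 6.64 to 23.4 (median 13.9) scaled reads in methylparaben tumors, from 7.61 to 34.3 (median 15.1) in propylparaben tumors and from 8.83 to 56.3 (median 21.6) in vehicle tumors. The upper ends differed most, and the highest tumor was vehicle 10. The difference was -0.58 ± 0.17 for methylparaben (adjusted p = 0.0520) and -0.44 ± 0.17 for propylparaben (0.147). Afmid overlaps an exon of Tk1 on the other strand. Dut, the enzyme that removes dUTP, had -0.31 ± 0.11 for methylparaben (adjusted p = 0.0900). Of the ribonucleotide reductase subunits, Rrm2 had -0.28 ± 0.14 (adjusted p = 0.215) and Rrm1 had -0.22 ± 0.12 (adjusted p = 0.255), with Rrm2 medians of 36.1, 34.8 and 41.4 in methylparaben, propylparaben and vehicle tumors.

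The 3 E2F genes lay below vehicle in both comparisons. E2f1, an activator of S phase genes, had values from 4.48 to 13.4 (median 6.90) scaled reads in methylparaben tumors, from 3.77 to 12.6 (median 8.15) in propylparaben tumors and from 5.06 to 22.0 (median 10.2) in vehicle tumors. It differed by -0.44 ± 0.14 for methylparaben (adjusted p = 0.0692) and by -0.33 ± 0.14 for propylparaben (0.197). E2f2, another activator, had -0.40 ± 0.13 (0.0725) and -0.40 ± 0.13 (0.108), with no vehicle tumor below 9.35. E2f8, an atypical E2F that represses, had -0.20 ± 0.19 for methylparaben (adjusted p = 0.558) and -0.29 ± 0.19 for propylparaben (0.413).

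Of the 4 chromatin genes, all lay below vehicle in methylparaben tumors and 3 in propylparaben tumors. Uhrf1, which brings the maintenance methyltransferase to replicated DNA, differed by -0.46 ± 0.18 for methylparaben (adjusted p = 0.113) and -0.31 ± 0.18 for propylparaben (0.338). The methyltransferase gene itself, Dnmt1, had -0.07 ± 0.09 (adjusted p = 0.673) and 0.06 ± 0.09 (adjusted p = 0.751). Dnmt1 medians were 62.0, 69.2 and 63.7 scaled reads in methylparaben, propylparaben and vehicle tumors, and 5 of 20 propylparaben tumors were below the vehicle median, the fewest of any member. Chaf1a, the large subunit of chromatin assembly factor 1, had -0.38 ± 0.17 for methylparaben (adjusted p = 0.176).

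The methyl and the propyl ester differ in the length of the alkyl chain of the ester, and whether their doses match is not in the labels. Between them 0 of 48 members and 0 of 14487 genes passed in either direction (0%; propylparaben minus methylparaben, limma), edgeR and DESeq2 called 0 members, and 1 member had an unadjusted p under 0.05 by limma. That was Prim2, with -0.25 and a 95% interval of -0.49 to -0.02 (adjusted p = 0.9999). The member median was 0.08, and 9 of 48 lay below 0. For Cdt1 the interval of the difference was -0.10 to 0.36, and for Rfc3 -0.19 to 0.20, which gives the sizes of difference the data leave possible.

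The counting tests on recovered whole reads gave more calls for methylparaben. edgeR's quasi-likelihood test called 8 members lower, Orc1, Cdt1, Mcm7, Gins3, Rfc3, Rfc5, Tk1 and E2f1, with adjusted p from 0.0151 to 0.0494. DESeq2 called 10, these and Pole and Prim1, with adjusted p from 0.00845 to 0.0481. Over all genes these tools called 2.16% and 2.56% lower. None of the members was called higher by either. Leaving out single libraries moved the limma count between 0 and 12, the latter without vehicle 5, while 11 were called without vehicle 11 and 9 without methylparaben 4. The calls over all genes moved with them: 449 of 14487 genes were called lower without vehicle 5, 337 without vehicle 11 and 208 without methylparaben 4, against 92 with all libraries.

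Other genes of replication that are not members were read the same way, 42 in all and 41 tested. For methylparaben 36 lay below vehicle with a median of -0.17, and 2 were called. Of all genes 48.8% lay below 0 and 0.635% were called lower. Orc2, a further subunit of the origin recognition complex, fell by 0.40 ± 0.09 (adjusted p = 0.0272, limma). Dbf4, the activator of the origin-firing kinase Cdc7, fell by 0.59 ± 0.15 (adjusted p = 0.0370). For propylparaben 35 lay below vehicle with a median of -0.18 and none was called, against 50.2% below 0 and 0% called lower among all genes. The smallest p values there were those of Dtymk (-0.36 ± 0.11, adjusted p = 0.0897), which makes dTDP, Orc2 (-0.29 ± 0.09, adjusted p = 0.0910) and Cdc7 (-0.45 ± 0.15, adjusted p = 0.112).

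Intron reads, which are often taken to come from unspliced RNA, allowed 46 members to be tested. Their source was not checked here, and how introns were defined is not given. Cdt1 had no intron read in any library and Pold1 averaged under 1. For methylparaben 42 of 46 lay below vehicle with a median of -0.39, and for propylparaben 37 of 46 with a median of -0.28, against 49.3% and 49% of all introns below 0. By limma no intron of any gene passed in either comparison (0% of 14281), and edgeR and DESeq2 called 0 member introns in each. By limma 14 and 11 members were lower at an unadjusted p under 0.05, against 882 and 726 of all introns. The smallest p values for methylparaben were those of Pola2 and Orc6. Pola2 introns had values from 6.1999 to 33.4 (median 12.3) in methylparaben tumors, from 6.06 to 29.5 (median 16.8) in propylparaben tumors and from 9.94 to 45.5 (median 21.8) in vehicle tumors. The differences were -0.67 ± 0.18 for Pola2 and -0.67 ± 0.19 for Orc6 (adjusted p = 0.146 for each).

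The difference between gene and intron level within a library could be tested for 17 members, and 0 of 17 passed (limma; 0% of 6667 genes for either ester), with 1 member of 17 at an unadjusted p under 0.05 for methylparaben and 2 for propylparaben. Over all 6667 genes, 173 were lower and 245 higher at that p for methylparaben, and 252 lower and 233 higher for propylparaben. Its median over these members was -0.04 for methylparaben and 0.003 for propylparaben. Orc6 had the smallest p for methylparaben, its introns being lower by more than its gene level (0.39 ± 0.17, adjusted p = 0.738), and Prim2 for propylparaben (-0.39 ± 0.15, adjusted p = 0.587). Across the 59 tumors, with group means taken off, gene and intron level of a member had a median r of 0.33. In 3 members r was over 0.8: Chaf1a (0.92), Lig1 (0.92) and Mcm4 (0.87), and all other members were lower. These r are descriptions over libraries that also share depth, and at most 148, 200 and 211 intron reads of Lig1 fell in a methylparaben, a propylparaben and a vehicle library.

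**Figure D3:**
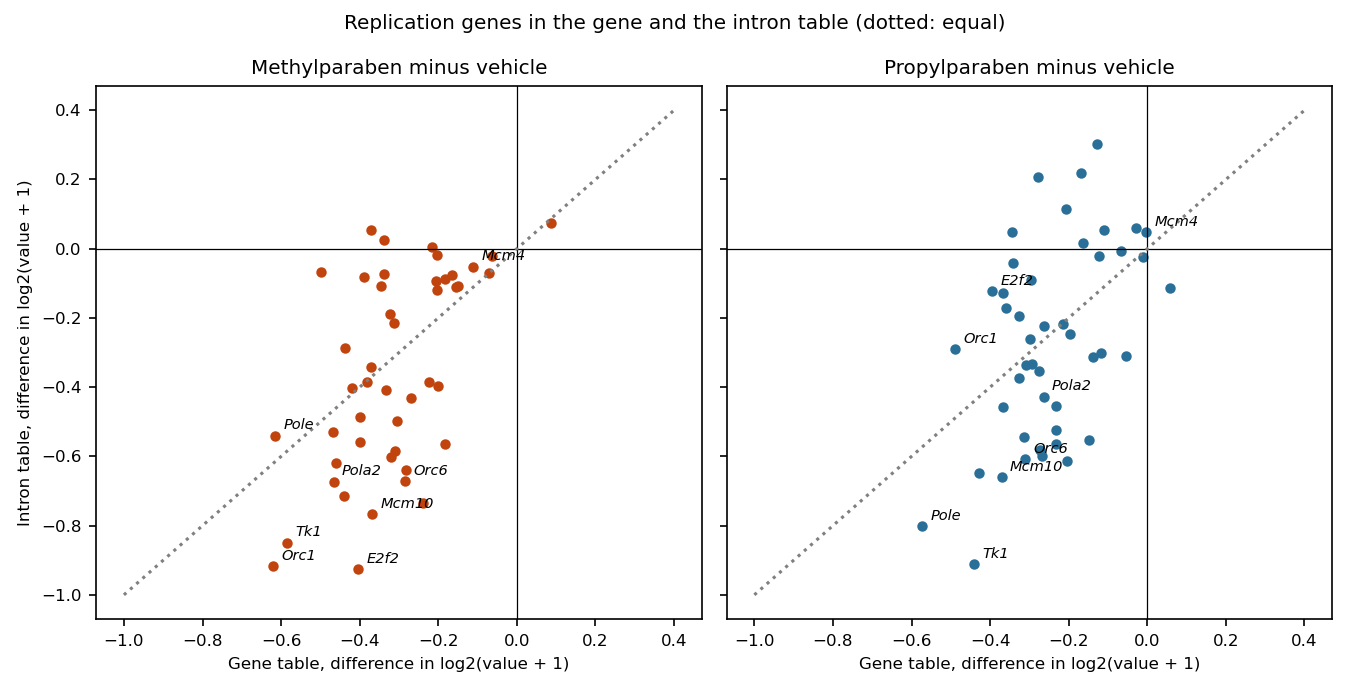
Difference from vehicle in log2(scaled reads + 1) of each replication gene tested in both tables, gene table on the horizontal and intron table on the vertical axis, for methylparaben (left) and propylparaben (right); the dotted line marks equal values. Most points lie below 0 on both axes (42 of 46 introns for methylparaben, 37 of 46 for propylparaben), with a wider scatter along the intron axis.

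Tumors of 1 group covered a range wider than the differences between groups. The mean over the 48 members (log2) had a lowest, median and highest value of 3.47, 4.08 and 4.67 in methylparaben tumors, of 3.79, 4.07 and 4.81 in propylparaben tumors and of 3.80, 4.31 and 5.02 in vehicle tumors. Of the 10 tumors with the highest mean, 1 was methylparaben, 1 propylparaben and 8 vehicle, and of the 10 lowest, 3 were methylparaben, 6 propylparaben and 1 vehicle. Vehicle 10 held the highest value of the vehicle group for 16 members and vehicle 8 for 13, while propylparaben 1 did so for 22 members and methylparaben 4 for 23 in their own groups. Methylparaben 5 was the lowest of its group for 16 members. It also had the highest adipocyte gene level of all tumors (mean log2 of 8.67), and a scaling factor of 0.830.

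**Figure D4:**
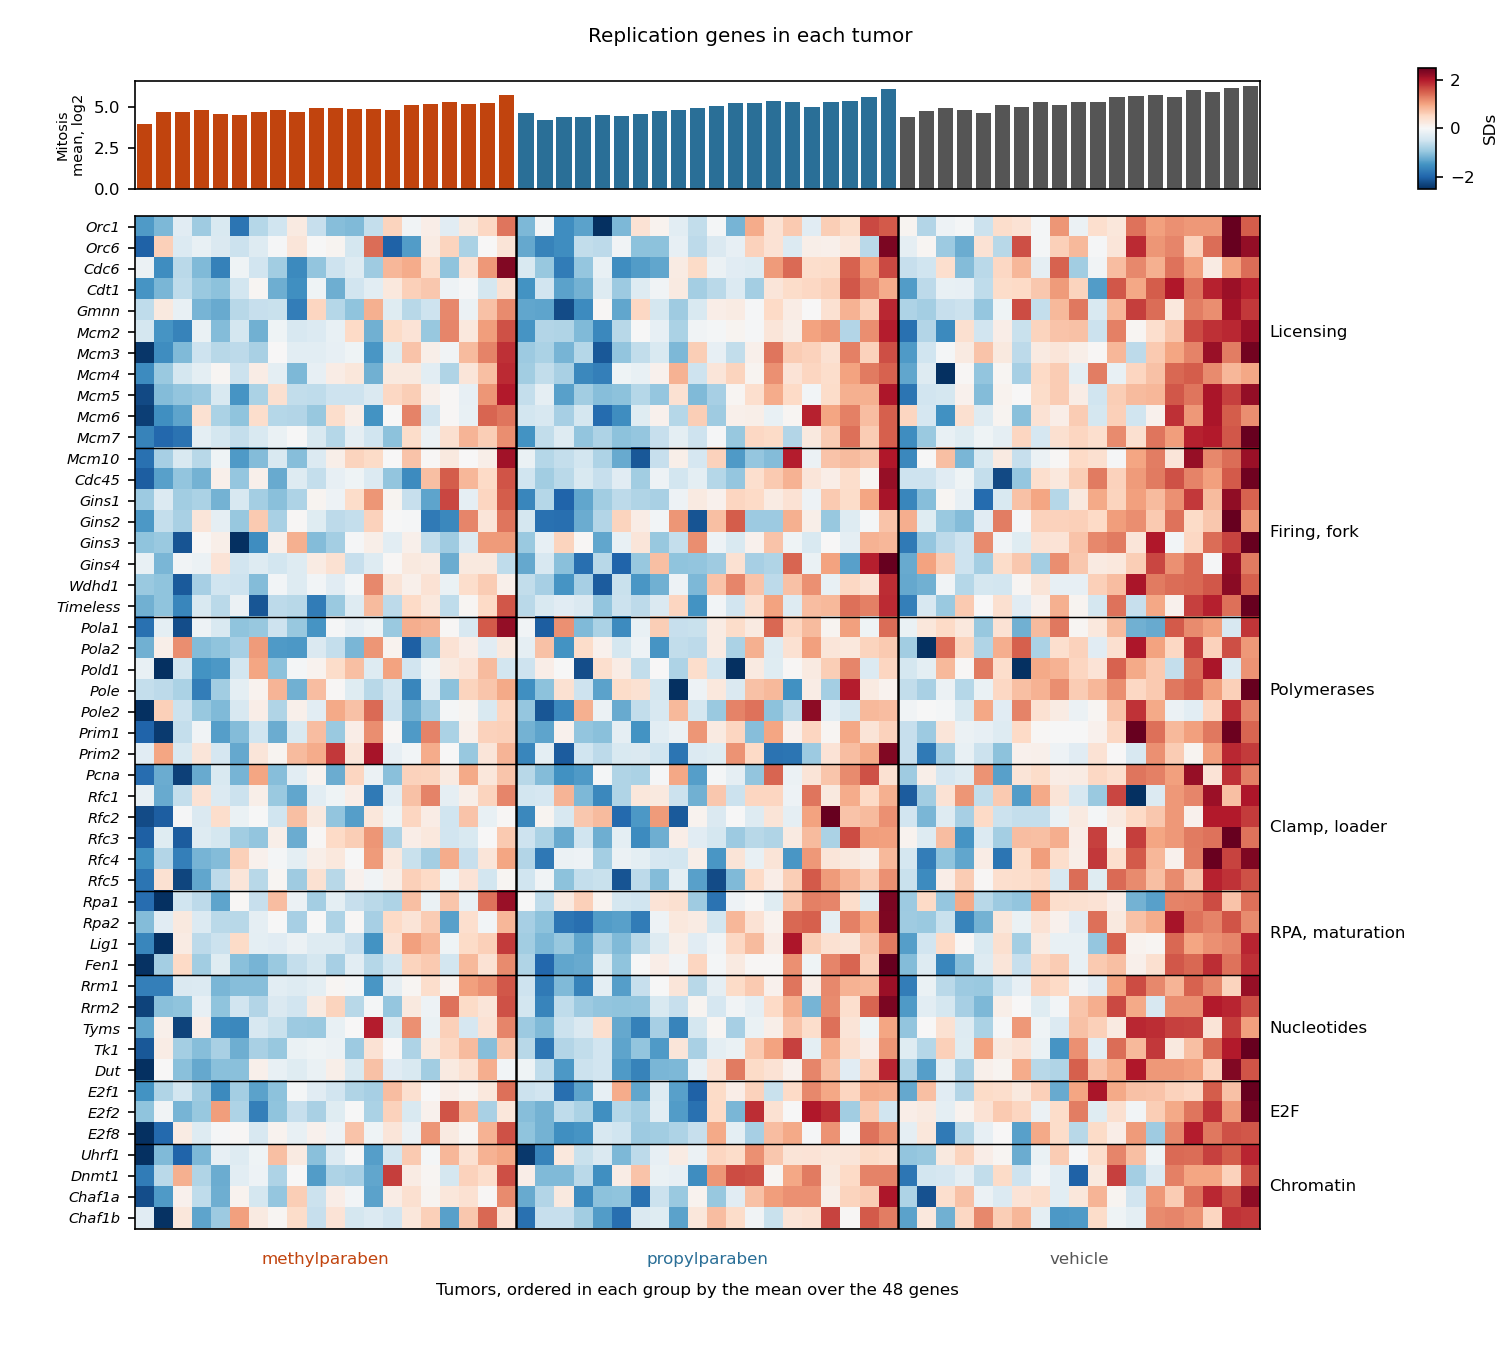
Level of the 48 replication genes (rows, by role) in the 59 tumors (columns), as SDs from the gene's mean over all tumors on the log2 scale, with methylparaben, propylparaben and vehicle from left to right and tumors ordered in each group by the mean over the 48 genes; bars give the mean of the 22 mitosis genes. Most genes turn from blue to red together towards the right of each group, and in single tumors up to 44 genes (methylparaben), 47 (propylparaben) and 48 (vehicle) lie above their overall median.

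The spread itself was tested on the deviation of each tumor from its group mean. None of the 32 members tested passed for either ester. The background was 1.48% of 9143 genes with a smaller spread in methylparaben than in vehicle tumors, and 0.383% for propylparaben, where 0.0109% had a larger one. At an unadjusted p under 0.05, 4 members had a smaller spread in methylparaben tumors, and for propylparaben 1 had a smaller and 1 a larger spread. Over all 9143 genes, 1344 had a smaller and 83 a larger spread at that p for methylparaben, and 1185 a smaller and 67 a larger one for propylparaben, so that nothing is read from the members' counts. The spread was smaller than in vehicle tumors for 71.7% of all genes with methylparaben and for 73.9% with propylparaben, against 24 and 19 of the 32 members. The smallest p was that of Rfc1 in both (adjusted p = 0.136 for methylparaben and 0.294 for propylparaben), with CVs of 11.01% in methylparaben, 11.2% in propylparaben and 18.2% in vehicle tumors. The median CV over the 48 members was 29.4% in methylparaben, 31.8% in propylparaben and 33.02% in vehicle tumors.

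With group means taken off, the members moved together: over 1128 pairs the median r was 0.48, and 6 pairs were below 0. Pairs of other genes were not computed, so this median is not read as particular to the members. The median was 0.39 within methylparaben, 0.50 within propylparaben and 0.56 within vehicle tumors. Pairs of the same role had a median r of 0.53 and pairs of different roles 0.47. The highest pairs were Fen1 with Rrm1 (0.83), Mcm5 with Rrm1 (0.82) and Mcm3 with Mcm7 (0.82). The lowest pair was Pola1 with Pola2 (-0.10), subunits of 1 complex, at means of 33.4 and 6.3 scaled reads. These are descriptions, since the 59 libraries are the same in each pair.

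Each member was then set against the mean of 22 mitosis genes, none of which is a member. All 48 correlated positively and 47 passed (two-sided permutation test, 100000 shuffles within groups, Benjamini-Hochberg over 14465 genes). Of all these genes, which leave out the mitosis list, 17.9% passed with r above 0 and 20.5% with r below 0. An r over 0.5 was found for 42 of 48 members and for 7.2% of all genes, whose median r was -0.02. Pearson's r ran from 0.25 for Pold1 (Spearman's rho 0.32, permutation p = 0.065, adjusted 0.132) to 0.88 for Rrm1 (rho 0.88). For 37 members p was 1e-05, the smallest the shuffles can give (adjusted 0.000114), and the median r was 0.67. Rrm2 had r = 0.88 (rho 0.84), Mcm5 0.88 (rho 0.84), Cdt1 0.75 (rho 0.75), E2f1 0.64 (rho 0.63) and Pcna 0.65 (rho 0.66), each with adjusted p = 0.000114 by the permutation test. By role the median r was highest for licensing (0.75) and lowest for polymerases and primase (0.46). Several polymerase genes had few reads, with means of 3.3 (Pole), 4.7 (Pold1) and 6.3 scaled reads (Pola2). Orc1, with a mean of 5.1, had r = 0.74. The part of level in this order of roles was not tested. Within groups the median over members was 0.61 in methylparaben, 0.70 in propylparaben and 0.76 in vehicle tumors, and 1 value was below 0, that of Gins4 in methylparaben tumors (-0.03). Without vehicle 8 and 10, the libraries farthest from the median of the mitosis mean, r ran from 0.27 to 0.89 and the largest move was 0.063, for Gins3.

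**Figure D5:**
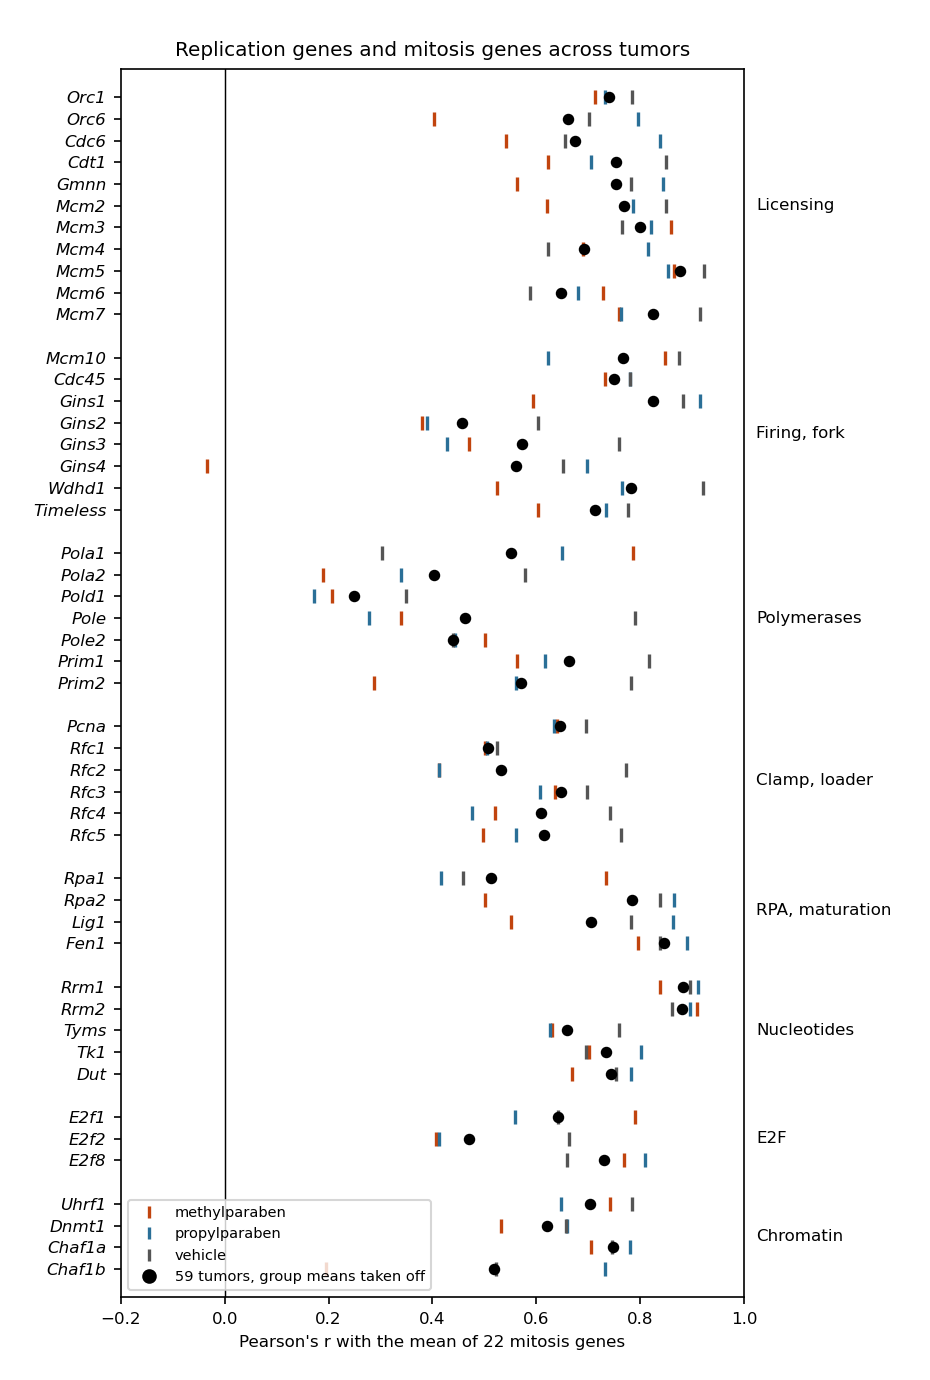
Pearson's r of each replication gene, by role, with the mean of 22 mitosis genes: black points over 59 tumors with group means taken off, ticks within methylparaben, propylparaben and vehicle tumors. Points run from 0.25 (Pold1) to 0.88 (Rrm1), with Pola2 (0.40) and Pole2 (0.44) next lowest. Other polymerase and primase genes lie higher, up to 0.66 (Prim1).

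The non-members most like the mean over the members, among 9143 genes with a mean of at least 10, were Cenph, Top2a, Ccna2, Pclaf, Hells, Kif15, Kif11, Cdc20, Cdca8 and Melk, with r from 0.91 to 0.89 over the 59 tumors. The median r of all these genes was 0.04. Pclaf encodes a PCNA-binding protein and Hells a chromatin remodeler, while most of the others act in mitosis, and Top2a, Ccna2, Kif11 and Cdc20 are in the mitosis list. Of the 100 genes with the highest r, 10 were among the 32 members compared and 19 were mitosis genes. Each member is part of the mean it was set against, which raises its r, so the count of members is not read further.

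Other measures moved with the replication genes. All 22 mitosis genes lay below vehicle for methylparaben (median -0.48, 3 called by limma: Kif23 with adjusted p = 0.0374, Ccna2 with 0.0456 and Ccnb1 with 0.0492) and for propylparaben (median -0.39, 0 called). Over all genes 0.635% were called lower for methylparaben and 0% for propylparaben. The summed level of the mitosis genes ran from 487 to 1658 scaled reads in methylparaben tumors. It ran from 555 to 2093 in propylparaben and from 594 to 2300 in vehicle tumors. With the mitosis mean as covariate the member median was -0.01 for methylparaben and 0.002 for propylparaben, with 26 and 24 of 48 below 0. That covariate had r = 0.96 (rho 0.95) with the mean over the members, group means taken off. A median near 0 was therefore nearly fixed in advance, and the part of mitosis in the differences was not tested by this fit. All 7 fibroblast genes lay above vehicle for both esters (medians 0.52 and 0.58), and their sum ran from 1271 to 4419 in methylparaben, from 807 to 5297 in propylparaben and from 361 to 4624 in vehicle tumors. All 8 adipocyte genes also lay above vehicle (medians 1.25 and 0.87), with sums of 37.4 to 7897, 28.7 to 2211 and 18.1 to 435 in methylparaben, propylparaben and vehicle tumors. All 7 macrophage genes lay above vehicle for both esters (medians 0.25 and 0.26), with sums of 245 to 642, 227 to 578 and 107 to 553 in methylparaben, propylparaben and vehicle tumors. All 6 skeletal muscle genes did so as well (medians 1.21 and 0.81), with sums of 0.732 to 6460, 1.45 to 629 and 3.43 to 720 in methylparaben, propylparaben and vehicle tumors. Of the 5 basal genes 4 lay above vehicle for each ester (medians 0.55 and 0.44), and of the 7 endothelial genes 7 for methylparaben and 6 for propylparaben (medians 0.22 and 0.27). Of the 9 luminal genes, 1 lay below vehicle for methylparaben and 3 for propylparaben (medians 0.06 and 0.04). Of 3 T cell genes tested, 1 and 2 lay below vehicle (medians 0.01 and -0.04). Of 2 B cell genes tested, 0 lay below vehicle for either ester (medians 0.37 and 0.53). With group means taken off, the mean over the members had r = -0.64 with the adipocyte, -0.62 with the macrophage and -0.60 with the fibroblast mean (rho -0.62, -0.51 and -0.58), and r = -0.47 with the basal, -0.38 with the endothelial and -0.22 with the muscle mean, as descriptions over 59 tumors. It also had r = -0.46 with the T cell, -0.28 with the luminal (rho -0.41) and -0.25 with the B cell mean. No adipocyte, macrophage, fibroblast, basal, endothelial or muscle gene was at 0 in all tumors of a group, and none passed (limma). The part of these cell types in the differences was not tested. A fit took 6 tissue composition scores as covariates (adipocyte, skeletal muscle, B cell, T cell, macrophage and fibroblast genes). There the member median was -0.16 for methylparaben and -0.12 for propylparaben, with 46 and 42 of 48 below 0 and none called. The adipocyte, macrophage and fibroblast scores moved with the mean over the members and their genes lay above vehicle. Smaller differences were therefore in part set in advance, and this fit is no test of cell types. The share of reads aligned to several places also moved with the mean over the members (r = 0.63, rho 0.60, 59 tumors, group means taken off). It ran from 11.8 to 13.8% in methylparaben, from 10.95 to 15.1% in propylparaben and from 11.4 to 15.8% in vehicle libraries, and its part in the result was not tested. Without the 7 libraries at the end of the first component the median was -0.13 for methylparaben (44 of 48 below 0) and -0.12 for propylparaben (39 of 48), and no gene was called. Most of these libraries are vehicle tumors with high member levels, so smaller differences were in part set by the choice.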

How the data were processed

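RNA from flash-frozen tumor tissue was sequenced in 59 libraries. Per the submitters' processing notes, bcl2fastq 2.20.0.422, STAR 2.6.1d and HTSeq 0.10.0 were used with GRCm38. Not given in the sources used here: annotation, library kit, strand setting and definition of introns. The authors deposited normalized values per gene and per intron (a signal, not counts), which were whole multiples of 1 amount per library (100% within 1e-06 reads), so reads were recovered. Summary lines and reads outside features (13.7 to 35.5%) were left out. No pair of libraries of 1 group agreed within sampling noise.

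Values were analysed as log2(value + 1) in limma 3.58.1 (trend; R 4.3.3), in 1 fit of all 59 libraries over all genes with a mean of at least 1, with Benjamini-Hochberg adjustment over all of them. Gene minus intron level needed both means to be at least 10, and the spread test a mean of at least 10 and the absolute deviation from the group mean. Count tests used edgeR 4.0.16 and DESeq2 1.42.0. Correlations used Python with numpy and 100000 shuffles. Scripts were tested on simulated data. Other settings tried were pseudocounts, filters, scalings, covariates and libraries left out.

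The members and gene lists were chosen with earlier results of these data known. Members named with values were those called in any fit, alternatives and fits without 1 library included, per role the 2 with the smallest and the 1 with the largest p for methylparaben, and 6 fixed genes (Pcna, Mcm2, Cdt1, Gmnn, Rrm2 and E2f1). Outside them, the 10 genes most like the member mean and, of other replication genes, those called or otherwise the 3 with the smallest p were named. Any further gene was named after its values were seen. Sequences are from RefSeq (GRCm38.p6), and gene positions and overlaps from GENCODE M21. Of the members, 16 have an exon overlap on the other strand and 2 (Pcna and Tyms) a pseudogene of the same name. Reads counted as ambiguous between genes (0.65 to 0.84% of a library) were left out with the summary lines. Values of these members may therefore lack reads or include reads of another gene. Intervals cover the spread between libraries. Library numbers are names only, given in record order.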

Additional observations from a re-analysis of the deposited data

How the results depend on the processing

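Of the 48 members, the number called lower for methylparaben was 1 in the fit reported. It was 2 with a pseudocount of 10 or quantile normalization, 3 with a mean of at least 10 or tumor number as covariate, 8 by edgeR and 10 by DESeq2. It was 0 with no filter on low values, only the 2 groups compared, array weights, the 6 composition scores or the mitosis mean as covariates, without the 5 libraries lowest in scaling factor, and without the 7 libraries at the end of the first component. Of all genes 0.635% were called lower for methylparaben in the fit reported, 2.16% by edgeR and 2.56% by DESeq2. Shares under most other settings are not given here, so nothing particular to the members is read from those counts. For propylparaben the number of members called lower was 0, and 1 by DESeq2, which called 0.973% of all genes lower. Leaving out 1 library gave 0 to 12 for methylparaben and 0 to 2 for propylparaben (2 without propylparaben 1 or vehicle 5, where 179 and 220 of all genes were called lower). The member median for methylparaben was -0.0127 with the mitosis mean as covariate. That covariate had r = 0.96 with the mean over the members, and the cause was not tested.

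Among the 31 members given with values, differences (log2) turned above 0 as follows, and the cause was not tested. In some of these fits further members also lay above 0, as the counts below 0 in the report show. With the mitosis mean as covariate they were, for methylparaben, Rpa1 0.0279, Chaf1a 0.0367, Rfc1 0.0409, Fen1 0.0682, Mcm2 0.088, Rpa2 0.0986, Dnmt1 0.1041, Rrm2 0.117, Rrm1 0.1186, Gins1 0.1459, Mcm4 0.1838 and E2f8 0.252, and for propylparaben, Prim2 0.0048, Uhrf1 0.013, Chaf1a 0.0385, Rfc1 0.0546, Mcm2 0.0599, E2f8 0.0724, Rrm2 0.0868, Gins1 0.0887, Rpa2 0.0891, Timeless 0.107, Rpa1 0.1322, Rrm1 0.1581, Fen1 0.187 and Mcm4 0.2328. With the composition scores they were Mcm4 0.0025 for methylparaben, and Rrm1 0.0012, Gins1 0.0139, Timeless 0.0216 and Mcm4 0.0634 for propylparaben. Without the 7 libraries they were Mcm4 0.0323, Rfc1 0.0372 and Dnmt1 0.045 for methylparaben, and Rrm1 0.0114, Fen1 0.0136, Rpa1 0.0233, Rfc1 0.062, Timeless 0.0674 and Mcm4 0.1088 for propylparaben. Mcm4 for propylparaben was 0.0056 with median-of-ratios scaling and 0.0016 with tumor number as covariate. Leaving out 1 library moved Mcm4 between -0.0993 and 0.0353 and Rpa1 between -0.0501 and 0.0253 for propylparaben.

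No paired analysis was possible because nothing in the labels ties a tumor of 1 group to a tumor of another. Members with few reads, such as Pole, Orc1 and most introns, had wide intervals at this depth.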
